A study of Rattus norvegicus with 17 samples.

Results

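The 10 genes examined belong to the T helper 17 (Th17) programme and were measured in CD4+ T cells of rats fed 3 amounts of vitamin D. They were Il17a, Il17f, Il21, Il22, Il23r, Rora, Ahr, Maf, Csf2 and Il1r1, and each was represented by the array row annotated to that symbol alone, with no filter on level. A row was found for 8 of the 10, among 14506 genes in all, and Il23r and Rora were not analysed here. Each of the 8 had 1 row. The samples were female Dark Agouti rats, an inbred strain in which immunization with myelin oligodendrocyte glycoprotein (MOG) starts experimental autoimmune encephalomyelitis (EAE), used to model multiple sclerosis. All 3 groups were immunized, so no unimmunized reference entered. On day 7 after immunization the cells were isolated from inguinal nodes by FACS, and their RNA was hybridized 1 sample per array: 5 arrays for the deprived diet (0 IU of vitamin D), 6 for the regular diet (2 IU) and 6 for the supplemented diet (10 IU). The diets began 5 weeks before immunization. The labels call the arrays of a diet biological replicates and do not say whether each holds 1 rat, so each p-value reflects the variation among these arrays, part of which may be technical.

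Th17 cells are helper T cells that secrete IL-17A and IL-17F, cytokines that make tissue cells recruit neutrophils. They arise under IL-6 and TGF-beta through the transcription factors STAT3, ROR gamma t and ROR alpha, and IL-1 and IL-23 sustain them. Granulocyte-macrophage colony-stimulating factor, the product of Csf2, is the T cell cytokine most closely tied to disease in mouse encephalomyelitis. Vitamin D acts through a nuclear receptor that dampens Th17 cytokines in cultured mouse and human T cells.

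The 250 bases before the annotated starts of Il17a, Il17f and Il21 are shown because these are the cytokine genes by which the programme is recognized. They were taken from RefSeq on the GRCr8 assembly, which listed such windows for 9 of the 10 genes and none for Il22, and they are written in each gene's own direction. Capitals mark 2 short motifs searched on both strands: AGGTCA, the half-site of ROR and other nuclear receptors, and GCGTG, the core bound by the aryl hydrocarbon receptor. AGGTCA or its reverse complement occurred in 14.1% and GCGTG or its reverse complement in 25.9% of 33469 windows of the same length.
Il17a (chr9:30640594-30640843, + strand): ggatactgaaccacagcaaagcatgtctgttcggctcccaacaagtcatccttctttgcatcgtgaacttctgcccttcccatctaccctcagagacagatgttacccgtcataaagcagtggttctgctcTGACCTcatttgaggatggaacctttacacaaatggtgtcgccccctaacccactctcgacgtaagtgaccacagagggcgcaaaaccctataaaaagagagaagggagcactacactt
Il17f (chr9:30697919-30698168, − strand): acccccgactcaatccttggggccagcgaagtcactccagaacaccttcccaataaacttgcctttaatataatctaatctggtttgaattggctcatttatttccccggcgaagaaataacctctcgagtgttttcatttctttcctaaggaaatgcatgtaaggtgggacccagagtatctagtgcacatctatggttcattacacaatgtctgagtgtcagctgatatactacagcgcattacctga
Il21 (chr2:122055143-122055392, − strand): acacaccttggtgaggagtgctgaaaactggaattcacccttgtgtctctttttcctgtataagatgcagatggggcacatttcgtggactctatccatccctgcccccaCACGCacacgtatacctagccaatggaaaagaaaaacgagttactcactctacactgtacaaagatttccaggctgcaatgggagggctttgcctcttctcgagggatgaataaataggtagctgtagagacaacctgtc
The Il17a window held 1 reverse complement of AGGTCA, the Il21 window 1 reverse complement of GCGTG, and the Il17f window had neither string of letters. Il17f is the next protein-coding gene after Il17a on chromosome 9. A match is a description of the letters and says nothing about binding in these cells.

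Over the whole series, the supplemented arrays had a narrower range of values: the SD of an array's log2 values ran from 1.908 to 1.972 on supplemented arrays, against 2.001 to 2.063 on regular and 2.027 to 2.073 on deprived arrays. Array spread and supplementation therefore cannot be told apart in these data, and with spread as a covariate limma called 0 genes in either comparison with the supplemented diet (1416 genes at an unadjusted p below 0.05 against the regular and 1385 against the deprived diet). The T cell marker list had array means of 10.423 to 10.609 on deprived, 10.433 to 10.657 on regular and 10.155 to 10.389 on supplemented arrays. Of these markers 4 of 9 were lower for supplemented minus regular diet, among them Cd4 at -0.59 (SE 0.11). The list median was -0.172 in that comparison, beside -0.1852 over the 25% of genes with the highest means. As a list, these abundant markers therefore fell no further than abundant genes in general. Ms4a1, a B cell gene, was at 4.94 to 5.76 on supplemented arrays, against 4.87 to 5.24 on regular and 4.88 to 5.09 on deprived arrays. Cd22, another B cell gene, went the other way, with means of 7.07 on supplemented, 7.57 on regular and 7.66 on deprived arrays. Of 7 B cell markers 5 were higher and 0 lower for supplemented minus regular diet. Over all genes 10.1% were called higher and 16.7% lower in that comparison, and 18.4% and 21.2% for supplemented minus deprived diet. Innate-like lymphocytes can also make IL-17, and of 6 of their markers 0 were higher and 1 lower for supplemented minus regular diet, and 2 were higher and 2 lower for supplemented minus deprived diet. Array spread, the B cell marker mean and the myeloid marker mean were tried as covariates, and the innate-like lymphocyte markers were not. Beyond those covariates, the part of other cells and of array spread in the values of the Th17 genes was not tested.

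Many genes differed between the diet groups, and none of the 8 Th17 genes passed the threshold (limma, Benjamini-Hochberg adjusted p below 0.05 over all genes). The count was 0 of 8 in the supplemented minus regular comparison, against 26.7% of all 14506 genes. It was 0 of 8 in the deprived minus regular comparison, against 0.944% of all genes, and 0 of 8 in the supplemented minus deprived comparison, against 39.5%. A moderated F test over the 3 diets also called 0 of 8, against 36.9% of all genes. At an unadjusted p below 0.05 in limma the count was 0 for supplemented minus regular (40.5% of all genes), 0 for deprived minus regular (13.9%), 1 for supplemented minus deprived (49.9%), which was Il1r1, and 0 in the F test (48%). The arrays of 2 diets overlapped for each of the 8 genes in each comparison, whereas they did not overlap in 9.68% of all genes for supplemented against regular diet, in 4.34% for deprived against regular diet and in 19.5% for supplemented against deprived diet.

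**Figure D1:**
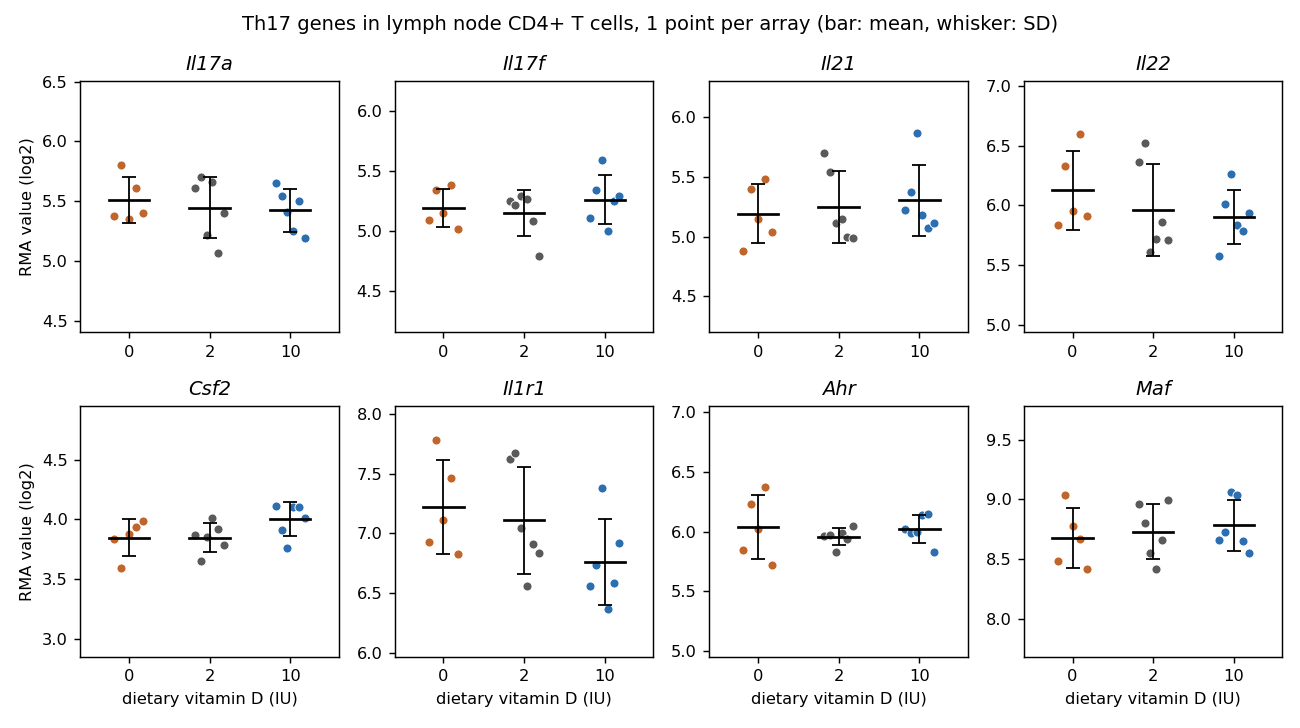
Log2 RMA values of the 8 Th17 genes on each array (vertical axis; every panel spans the same log2 range) by dietary vitamin D in IU (horizontal axis: 0 deprived, 2 regular, 10 supplemented). Points are arrays, horizontal bars are means and whiskers are SD (n = 5, 6 and 6). The diets overlap in every panel, and the Il1r1 mean is lowest in the supplemented diet at 6.76.

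Il17a, the signature cytokine, had log2 values of 5.38, 5.80, 5.35, 5.61 and 5.4 on the 5 deprived arrays. The lowest, median and highest values were 5.07, 5.51 and 5.70 on the regular arrays, and 5.19, 5.46 and 5.65 on the supplemented arrays. The ranges overlapped, and 2 regular and 2 supplemented arrays lay below every deprived array. The difference was -0.02 for supplemented minus regular diet (SE 0.11, 95% interval -0.24 to 0.20, adjusted p = 0.891 in limma) and 0.06 for deprived minus regular diet (SE 0.11, interval -0.17 to 0.29, adjusted p = 0.86). On the fold scale the first interval runs from 0.846 to 1.15, and smaller changes of Il17a signal cannot be told from 0 with these arrays. By mean, Il17a stood at percentile 27.72 of all genes. The bounds hold for the array signal at this low level and need not bound the change in transcript.

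Il17f, whose product pairs with IL-17A in a heterodimer, had values of 5.09, 5.34, 5.15, 5.38 and 5.02 on the deprived arrays. It had a lowest, median and highest value of 4.79, 5.24 and 5.29 on the regular arrays and of 5.00, 5.27 and 5.59 on the supplemented arrays. The low end of the regular arrays was set by 1 array, replicate 6. The differences were 0.11 for supplemented minus regular diet (SE 0.10, adjusted p = 0.392) and 0.04 for deprived minus regular diet (SE 0.10, adjusted p = 0.897).

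Il21, a cytokine that Th17 and follicular helper T cells make and that feeds back on Th17 cells, ran from 4.88 to 5.48 on the deprived arrays, from 4.99 to 5.70 on the regular arrays and from 5.07 to 5.87 on the supplemented arrays. The supplemented maximum came from replicate 3, and the next supplemented array was at 5.37. Its differences were 0.05 (SE 0.14) for supplemented minus regular diet and -0.06 (SE 0.14) for deprived minus regular diet, with adjusted p of 0.786 and 0.906. Il22, a cytokine that acts on epithelium, had values of 5.84, 6.33, 5.95, 6.60 and 5.91 on the deprived arrays. Its lowest, median and highest values were 5.61, 5.79 and 6.52 on the regular arrays and 5.58, 5.89 and 6.26 on the supplemented arrays. Its largest difference was -0.22 for supplemented minus deprived diet (SE 0.16, interval -0.55 to 0.11, adjusted p = 0.264). For deprived minus regular diet it was 0.16 (SE 0.16, interval -0.16 to 0.49, adjusted p = 0.699), the largest of the 8 genes in that comparison.

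Csf2, the gene of granulocyte-macrophage colony-stimulating factor, lay with Il17f and Il21 in the lowest 25% of genes by mean. A filter on that fraction would remove those 3 and keep the other 5 members. Csf2 had values of 3.84, 3.59, 3.88, 3.94 and 3.99 on the deprived arrays, with a lowest, median and highest value of 3.65, 3.86 and 4.01 on the regular arrays and 3.76, 4.06 and 4.11 on the supplemented arrays. Of the 6 supplemented arrays 3 lay above every array of the other diets. The difference was 0.15 for supplemented minus regular diet (SE 0.08, interval -0.01 to 0.31, adjusted p = 0.141) and 0.00 for deprived minus regular diet (SE 0.08). Without supplemented replicate 3 the supplemented minus regular difference was 0.20 and passed (adjusted p = 0.0476), as did supplemented minus deprived diet (0.20, adjusted p = 0.0446). That array had the lowest supplemented value, so leaving it out raises both differences by construction. After quantile normalization the 2 differences were 0.07 and 0.06. Dim genes as a group were higher in supplemented samples: the median difference over the lowest 25% of genes was 0.0936 against the regular and 0.1135 against the deprived diet, and its part in the Csf2 values was not tested.

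Il1r1, the signalling receptor for IL-1, showed the largest differences of the 8 in the 2 comparisons with the supplemented diet. Its values were 6.93, 7.78, 7.11, 7.46 and 6.83 on the deprived arrays. The lowest, median and highest values were 6.56, 6.98 and 7.67 on the regular arrays, and 6.37, 6.67 and 7.38 on the supplemented arrays. All but 2 supplemented arrays, replicates 3 and 6, lay below the lowest deprived array. The mean was 6.76 ± 0.356 on supplemented arrays, against 7.22 ± 0.392 on deprived arrays (SD, n = 6 and 5), a difference of -0.46 (SE 0.20, interval -0.87 to -0.05, unadjusted p = 0.028, adjusted p = 0.0647 in limma). Against the regular mean of 7.11 ± 0.445 (SD, n = 6) the supplemented difference was -0.35 (SE 0.19, interval -0.73 to 0.04, adjusted p = 0.164), and deprived minus regular was 0.11 (SE 0.20, adjusted p = 0.856).

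The supplemented minus deprived difference of Il1r1 moved across the threshold with the array set. It passed without supplemented replicate 3 (-0.58, adjusted p = 0.0172) and without deprived replicate 6 (-0.56, adjusted p = 0.0394). These were the highest supplemented and the lowest deprived array for Il1r1, so leaving either out widens the difference by construction. With any other single array left out it did not pass. Centring each array on its median shifted the median of all genes by -0.104 in this comparison, to -0.0531, and Il1r1 was then at -0.56 (adjusted p = 0.0358). With the spread of each array as a covariate the difference turned to 0.11 with an SE of 0.45 (adjusted p = 0.966). With the mean of the B cell markers as a covariate it was -0.86 (adjusted p = 0.00213), and Il1r1 also passed for supplemented minus regular diet (-0.73, adjusted p = 0.00692) and Il22 for supplemented minus deprived diet (-0.57, adjusted p = 0.00741). Those marker means were themselves higher in supplemented samples, at 6.002 to 6.493, than in regular (5.836 to 6.259) and deprived samples (5.928 to 6.118).

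**Figure D2:**
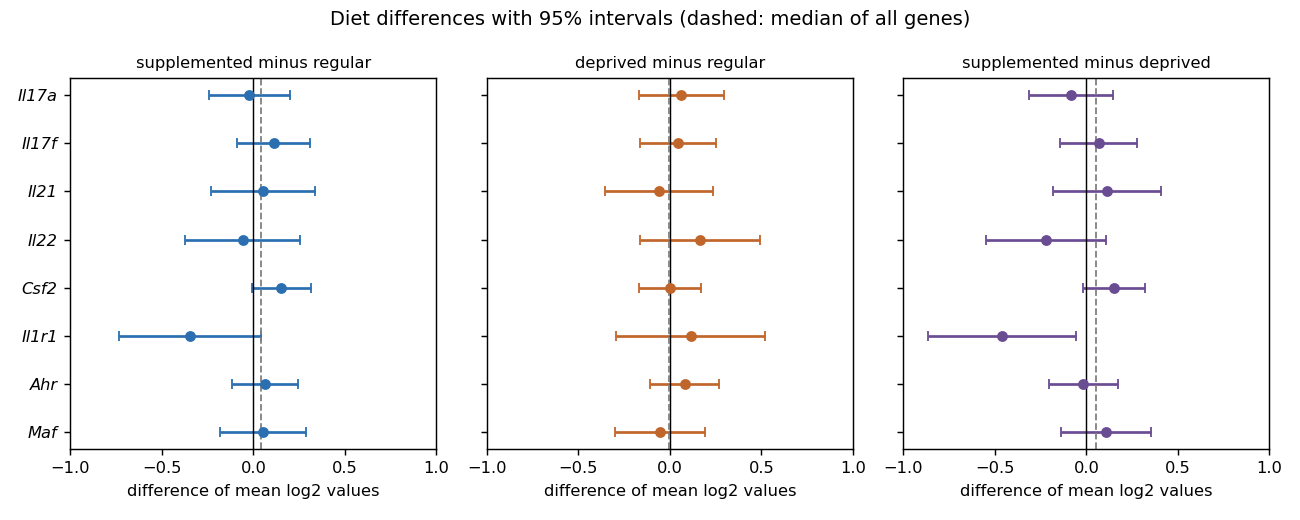
Differences of mean log2 values (horizontal axis) for the 8 Th17 genes (rows) in each diet comparison, with 95% intervals from limma and a dashed line at the median of all 14506 genes. Of the 24 intervals, 1 excludes 0, that of Il1r1 for supplemented minus deprived diet (-0.87 to -0.05).

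Among the factors, Ahr encodes the ligand-activated aryl hydrocarbon receptor, which promotes Il22 transcription. It had values of 5.85, 6.23, 6.02, 6.37 and 5.72 on the deprived arrays, which enclose the range of the regular arrays (5.83 to 6.05) and that of the supplemented arrays (5.83 to 6.15). Its SD was 0.265 on deprived arrays, against 0.0714 on regular arrays. Its differences were 0.06 for supplemented minus regular diet (SE 0.09, adjusted p = 0.601) and 0.08 for deprived minus regular diet (SE 0.09, adjusted p = 0.753). Maf, the bZIP factor c-Maf that drives Il21 and Il10, ran from 8.42 to 9.04 on deprived arrays, 8.42 to 8.99 on regular arrays and 8.55 to 9.06 on supplemented arrays. Its differences were 0.05 (SE 0.11) for supplemented minus regular diet and -0.05 (SE 0.12) for deprived minus regular diet. Over the 8 genes the median difference was 0.05 between supplemented and regular arrays, 0.05 between deprived and regular arrays and 0.02 between supplemented and deprived arrays, beside 0.04, -0.01 and 0.05 over all genes. The widest bounds of the 8 intervals were 0.601-fold and 1.26-fold for supplemented minus regular, 0.782-fold and 1.43-fold for deprived minus regular, and 0.549-fold and 1.33-fold for supplemented minus deprived diet. The regular arrays enter both comparisons with that diet, so the 2 sets of differences share them.

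The arrays of 1 diet differed from each other in these genes more than in most. The SD within diets, pooled over the 3, was 0.4 for Il1r1, 0.318 for Il22, 0.283 for Il21, 0.229 for Maf and 0.213 for Il17a, against a median of 0.129 over all genes. Those 5 genes stood above 99.71%, 99.2%, 98.68%, 96.08% and 94.01% of genes in this measure. The same arrays tended to be high for several genes. On deprived replicates 3 and 5, regular replicates 1 and 2 and supplemented replicate 3, Il21, Il22 and Il1r1 each exceeded their diet mean by 0.2 or more (rounded to 2 decimals), with Il1r1 above it by 0.24 to 0.62. Il17f was above its diet mean on all 5 of them, Il17a on 4 and Csf2 on 2.

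Deviations from the diet means were correlated over the 17 arrays for all 28 pairs of the 8 genes, with two-sided permutation p-values adjusted over the pairs. Of these, 8 passed. No share of passing pairs over all genes was set beside this count. It therefore does not show that these genes correlate more than others do. Il21 and Il22 had a Pearson r of 0.848 (adjusted p = 0.00112, Spearman rho 0.694, permutation p = 0.00284), and r was 0.839 without the 2 arrays farthest from the median of Il21. Il1r1 went with Il22 (r = 0.845, rho 0.711, permutation p = 7e-05 and 0.00204, adjusted p = 0.00112 for r) and with Il21 (r = 0.838, rho 0.713, permutation p = 8e-05 and 0.00194, adjusted p = 0.00112 for r), with r of 0.844 and 0.749 when the 2 arrays farthest from the median of the cytokine were left out. Il17f correlated with Il21 (r = 0.697, permutation adjusted p = 0.00969), with Il1r1 (r = 0.665, adjusted p = 0.0164) and with Il22 (r = 0.587, adjusted p = 0.0446). Spearman rho was 0.669, 0.696 and 0.5 for these pairs (permutation p = 0.00402, 0.00225 and 0.0432), and r was 0.722, 0.649 and 0.616 without the 2 farthest arrays.

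Csf2, at percentile 6.859 of all genes by mean, ran the other way in array signal, which need not follow the transcript at that level. It was low where Il1r1 was high (r = -0.761, adjusted permutation p = 0.00448, rho -0.674, permutation p = 0.00386, r of -0.601 without the 2 farthest arrays) and where Maf was high (r = -0.607, adjusted permutation p = 0.0393, rho -0.578, permutation p = 0.0165, r of -0.355 without the 2 farthest arrays). The relation with Maf was weaker without the 2 arrays farthest in Maf, and it was not tested over the arrays left. By Spearman rho, 6 of the 8 pairs passed after adjustment, and Il17f with Il22 (adjusted permutation p = 0.0969) and Maf with Csf2 (0.0576) did not. Il17a passed with no other member: its r was 0.525 with Il21 (adjusted permutation p = 0.0622, rho 0.598, adjusted permutation p = 0.0504, r of 0.449 without the 2 farthest arrays) and 0.32 with Il17f (adjusted permutation p = 0.27, rho 0.355, r of 0.257 without them).

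**Figure D3:**
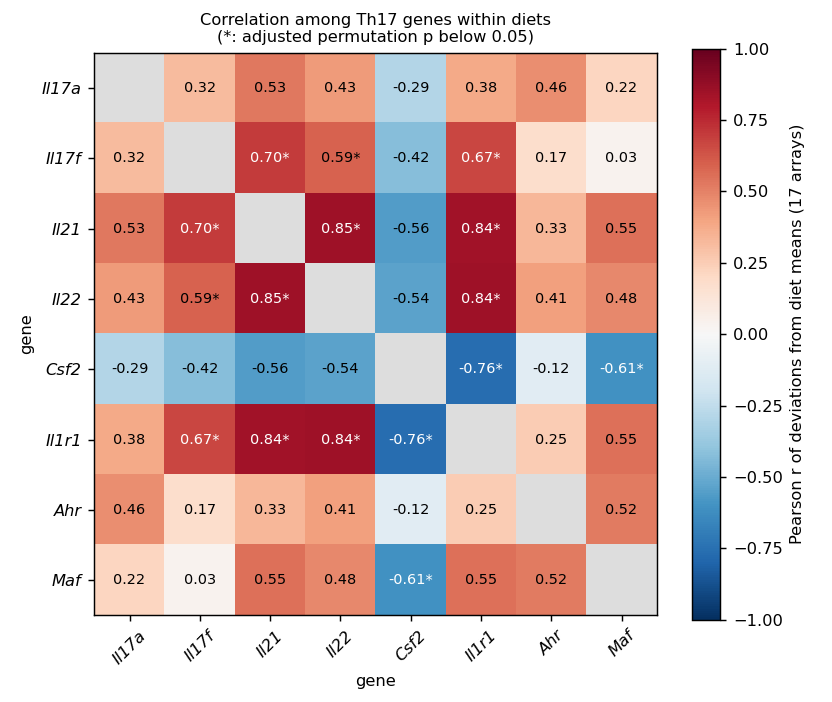
Pearson r of deviations from diet means over 17 arrays for every pair of the 8 Th17 genes (both axes list the genes; colour and number give r; a star marks an adjusted permutation p below 0.05). Il21, Il22 and Il1r1 form the block of highest values, at 0.84 to 0.85, and the row of Csf2 is negative throughout.

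The 5 arrays named above were picked because Il21, Il22 and Il1r1 were high on them, so leaving them out lowers r for those genes by construction. Over the other 12 arrays r was 0.324 for Il21 and Il22, 0.443 for Il22 and Il1r1, 0.129 for Il21 and Il1r1, 0.354 for Il17f and Il21, and -0.583 for Csf2 and Il1r1. These values are a description with no test. Within the regular diet r was 0.888 for Il21 and Il22 and 0.895 for Il22 and Il1r1, and within the supplemented diet it was 0.771 and 0.821 (6 arrays each). The pairs of Il21, Il22 and Il1r1 passed in all 24 other settings tried, and Csf2 with Il1r1 did too. Il17f with Il22 passed in 10 of the 24 and Maf with Csf2 in 14.

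**Figure D4:**
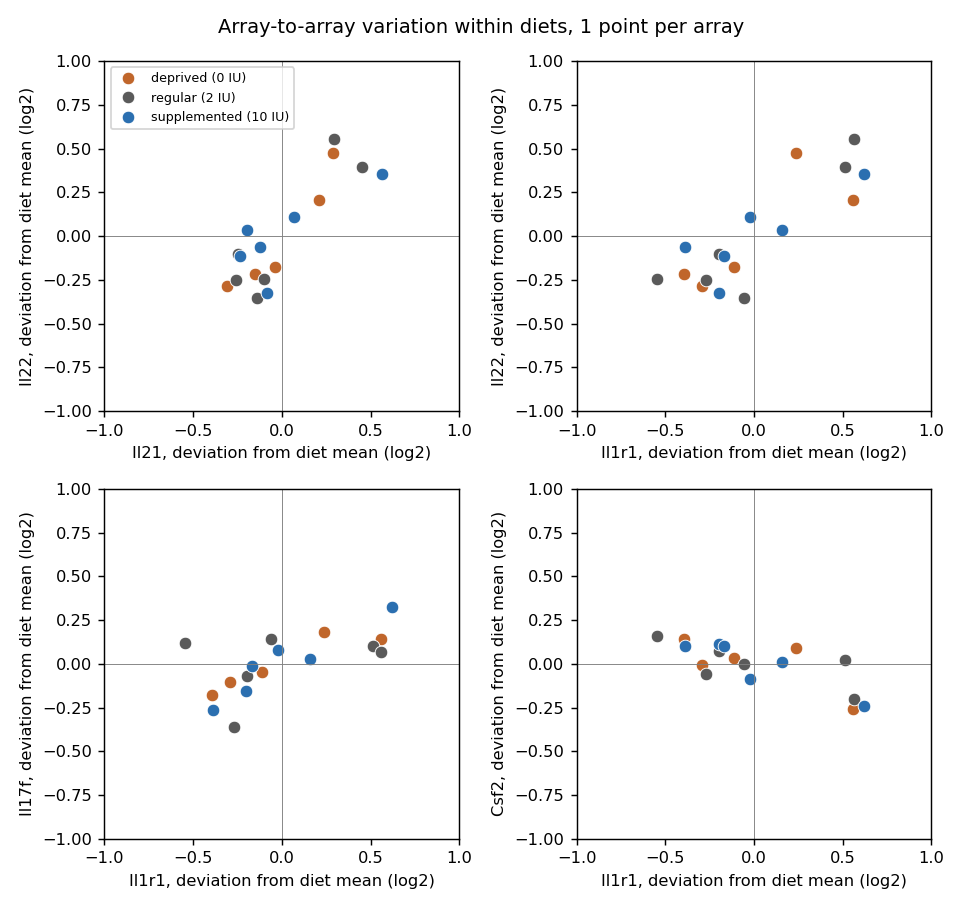
Deviation of 1 gene from its diet mean (log2) against that of another, 1 point per array, coloured by diet. A group of 5 arrays, drawn from all 3 diets, sits at the upper right for Il21, Il22 and Il1r1, and Csf2 slopes downward against Il1r1 (r = -0.761). The Csf2 signal is low, at percentile 6.859 of all genes by mean.

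The T cell, B cell and myeloid marker means and the array spread were set beside these deviations. None of the 32 relations with the 8 genes passed after adjustment. The dendritic, CD8 T and NK, innate-like lymphocyte and stromal lists were not set beside them. The B cell mean had an r of 0.66 with Il22 (permutation p = 0.00396, adjusted p = 0.127, rho 0.591, permutation p = 0.0143) and 0.611 with Il1r1 (permutation p = 0.00961, adjusted p = 0.154, rho 0.549, permutation p = 0.0251). Without the 2 arrays farthest from the median of the B cell mean these were 0.632 and 0.543. With the B cell mean removed from both genes, r was 0.825 for Il21 and Il22 and 0.744 for Il22 and Il1r1. With the array spread removed it was 0.874 and 0.881.

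Genes with the most similar profile over the 17 arrays were looked up among all 14506, as a description with no test, since the highest of so many values is large by selection. The nearest to Il17a were the olfactory receptor genes Or2m12 (r = 0.802) and Or4d11 (0.771) and the centromere protein gene Cenpu (0.763). The nearest to Il17f were Aga (0.853), which encodes a lysosomal amidase, the ubiquitin ligase scaffold Cul1 (0.791) and the nuclear pore gene Nup107 (0.777). For the more variable members, the nearest genes were looked up after their values were seen. Il1r1 was closest to Plcb4 (0.92), the IL-2 receptor alpha chain gene Il2ra (0.908), Gda (0.902), the spindle gene Tpx2 (0.889) and Ubd (0.889), and sixth came Ccr6 (0.886), the chemokine receptor that marks Th17 cells. For Il21 the first 3 of all genes were Il1r2, the IL-1 decoy receptor (0.854), Il22 (0.848) and Il1r1 (0.838). Il22 was closest to Cpe (0.885), Pbk (0.881) and Psat1 (0.863), and Ccr6 ranked 35 for Il21 (0.733) and 54 for Il22 (0.711). Over the 12 arrays other than the 5 high ones, r was 0.676 for Il1r1 and Il2ra, 0.668 for Il1r1 and Ccr6 and 0.594 for Il21 and Il1r2. It was 0.242 for Il21 and Il2ra, -0.29 for Il21 and Hif1a (0.819 over all arrays), -0.0686 for Il21 and Ccr6 and 0.00788 for Il22 and Ccr6.

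The other genes of the programme were read from 6 lists with 67 genes, of which 59 had a row. For supplemented minus regular diet 3 were higher, 6 lower and 50 did not pass, against 10.1% of all genes called higher and 16.7% lower. For deprived minus regular diet 1 was higher and 58 did not pass, against 0.834% called higher, and for supplemented minus deprived diet 6 were higher, 10 lower and 43 did not pass, against 18.4% higher and 21.2% lower. Pooled over the 6 lists, the shares were below those of all genes in the 2 comparisons with the supplemented diet, and single lists differed from this.

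Transcription factors that act beside the members were lower or did not pass. In supplemented minus deprived diet 6 of 11 were lower and 0 higher, against 21.2% of all genes called lower, and in supplemented minus regular diet 4 of 11 were lower, against 16.7% of all genes. Stat3, which transmits IL-6 and IL-23 signals, fell to 8.38 ± 0.245 on supplemented arrays, against 8.80 ± 0.183 on regular arrays (SD, n = 6 each), a difference of -0.42 (SE 0.10, adjusted p = 0.00312 in limma). Nfkbiz, the nuclear NF-kappaB regulator that cooperates with ROR factors at Il17a in mouse, changed by -0.36 (SE 0.12, adjusted p = 0.0248), and the chromatin organizer Satb1 by -0.24 (SE 0.07, adjusted p = 0.0233). Hif1a, the hypoxia factor, was lower for supplemented minus deprived diet (-0.35, SE 0.07, adjusted p = 0.000269). The larger part of that gap lay between the deprived and regular diets, at 0.24 (SE 0.07, adjusted p = 0.0807). Supplemented minus regular diet was at -0.11 (SE 0.06, adjusted p = 0.191), and neither of these passed. The list median was -0.19 for supplemented minus regular and -0.26 for supplemented minus deprived diet, beside 0.04 and 0.05 over all genes. Abundant genes as a group were lower in supplemented samples, with a median of -0.19 against the regular and -0.26 against the deprived diet over the 25% of genes with the highest means. Without the lowest 50% of genes, 3033 of 7253 were lower for supplemented minus deprived and 2462 for supplemented minus regular diet. The share of all genes is therefore a low yardstick for abundant factors, and the part of level in these calls was not tested. After quantile normalization Satb1, Nfkbiz and Hif1a did not pass (adjusted p = 0.7, 0.205 and 0.109), and with array spread as a covariate Stat3 was at 0.00 (adjusted p = 1). Nfkbiz also missed the threshold without supplemented replicate 2, 4 or 5 or regular replicate 1 (adjusted p = 0.0701, 0.0586, 0.0565 and 0.0648), and Satb1 without supplemented replicate 2 or 5 (0.0561 and 0.0651).

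Among the other cytokines, chemokines and surface proteins tied to Th17 cells, 3 of 9 were higher for supplemented minus deprived diet, against 18.4% of all genes. In that comparison 1 of 9 was lower, against 21.2% of all genes, and this was Ccr6. It had a lowest, median and highest value of 6.88, 7.28 and 8.21 on supplemented arrays, against 7.87, 7.95 and 8.71 on deprived arrays, and 7.21, 7.79 and 8.42 on regular arrays. Of the 6 supplemented arrays 5 lay below every deprived array. The difference was -0.80 for supplemented minus deprived diet (SE 0.21, adjusted p = 0.0046 in limma), while -0.40 against the regular diet (SE 0.20, adjusted p = 0.133) and 0.40 for deprived minus regular diet (SE 0.21, adjusted p = 0.402) did not pass. Without supplemented replicate 3 the difference from the regular diet was -0.56 and passed (adjusted p = 0.0211). The Ccr6 call held without each array in turn, after quantile normalization and after cyclic loess, and ended with the array spread (adjusted p = 0.998) or the myeloid marker mean (adjusted p = 0.151) as a covariate. B cells carry this receptor too. Of 7 B cell markers, 5 were higher and 1 lower for supplemented minus deprived diet, against 18.4% and 21.2% of all genes. With the B cell marker mean as a covariate the Ccr6 difference was -1.22 for supplemented minus deprived (adjusted p = 0.00015) and -0.80 for supplemented minus regular diet (adjusted p = 0.00572). In a sorted population, fewer Ccr6-positive cells and less Ccr6 RNA per cell cannot be told apart. In the same list Il24 (0.36, SE 0.09, adjusted p = 0.00279) and the membrane glycoprotein gene Pdpn (0.40, SE 0.10, adjusted p = 0.00303) were higher for supplemented minus deprived diet. Stromal cells of lymph nodes carry Pdpn as well. Of 8 stromal and endothelial markers 5 were higher and 1 lower in that comparison, against 18.4% and 21.2% of all genes. The array means of that list were 6.316 to 6.41 on supplemented arrays, against 6.176 to 6.273 on deprived arrays. The part of stromal cells in the Pdpn value was not tested. Ccl20, the ligand of CCR6, was higher for supplemented minus regular diet (0.18, SE 0.06, adjusted p = 0.034), a call that was lost in 8 of the 17 arrays left out 1 at a time (regular replicates 1, 3, 4 and 5 and supplemented replicates 2, 3, 4 and 5, with adjusted p up to 0.0714). The deprived mean of Ccl20 also lay above the regular one, by 0.25 (SE 0.06, adjusted p = 0.0637 in limma). Supplemented minus deprived diet was at -0.07 (SE 0.06, adjusted p = 0.397). After quantile normalization, cyclic loess and median centring, Ccl20 did not pass for supplemented minus regular diet (adjusted p = 0.36, 0.42 and 0.283 in limma). In those settings it was lower for supplemented minus deprived diet (-0.18, -0.20 and -0.17, adjusted p = 0.0431, 0.0298 and 0.0482).

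**Figure D5:**
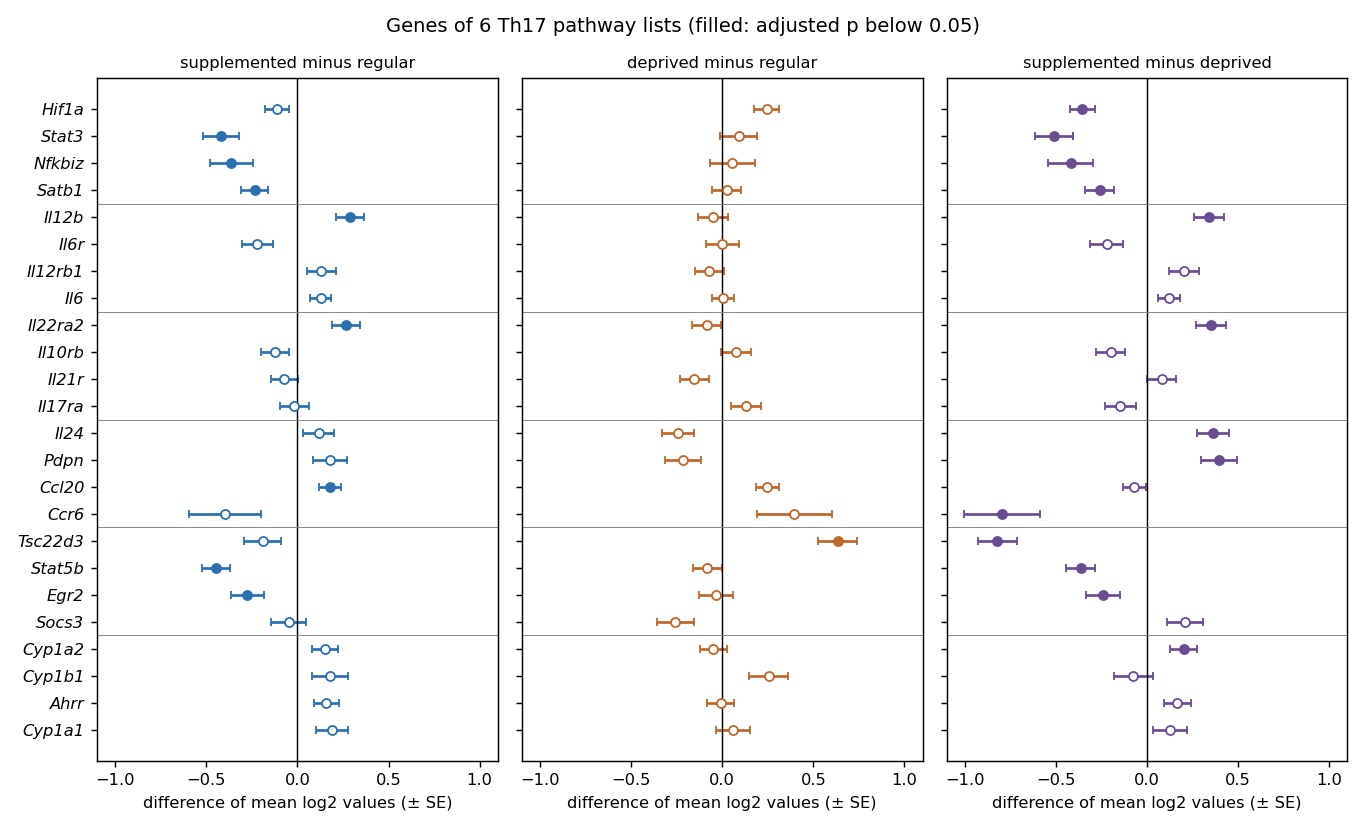
Differences of mean log2 values with SE (horizontal axis) for up to 4 genes of each of 6 Th17 pathway lists (rows, lists parted by grey lines) in the 3 diet comparisons. Filled points passed at an adjusted p below 0.05, and the largest falls for supplemented minus deprived diet are those of Tsc22d3 (-0.82) and Ccr6 (-0.80).

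Of 14 inducing cytokines and their receptors, 1 passed in either comparison with the supplemented diet and 0 passed for deprived minus regular diet (limma, with 1 of 14 below an unadjusted p of 0.05 there). Over all genes 26.7% passed for supplemented minus regular, 39.5% for supplemented minus deprived and 0.944% for deprived minus regular diet. The gene of this list that passed was Il12b, the p40 chain shared by IL-12 and IL-23, which was higher by 0.29 for supplemented minus regular (SE 0.08, adjusted p = 0.00976) and by 0.34 for supplemented minus deprived diet (SE 0.08, adjusted p = 0.00281). The IL-6 receptor gene Il6r was at -0.22 (SE 0.08, adjusted p = 0.0562), the shared IL-12 and IL-23 receptor chain Il12rb1 at 0.13 (SE 0.08) and Il6 at 0.13 (SE 0.06) for supplemented minus regular diet. Without supplemented replicate 1 or 3 or regular replicate 2, Il6r passed in that comparison (adjusted p = 0.0466, 0.025 and 0.0331). Among 8 receptors for the members' cytokines, Il22ra2, the soluble IL-22 binding protein, was higher by 0.27 for supplemented minus regular (SE 0.08, adjusted p = 0.0129) and by 0.35 for supplemented minus deprived diet (SE 0.08, adjusted p = 0.00156). Il17ra, the receptor of IL-17A and IL-17F, was at -0.02 (SE 0.08), and Il21r at -0.07 (SE 0.07) and Il10rb at -0.12 (SE 0.08) did not pass either for supplemented minus regular diet. Il12b and Il22ra2 are products chiefly of myeloid and dendritic cells. Of 14 myeloid markers 3 were higher for supplemented minus regular diet, against 10.1% of all genes, and 2 for supplemented minus deprived diet, against 18.4%. The array means of that list were 5.776 to 5.854 on supplemented arrays, against 5.632 to 5.752 on regular and 5.593 to 5.79 on deprived arrays. Of 5 dendritic cell markers 1 was higher for supplemented minus regular and 2 for supplemented minus deprived diet. With the myeloid mean as a covariate Il12b (adjusted p = 0.204) and Il22ra2 (0.362) did not pass for supplemented minus regular diet, and marker mean and diet go together in that comparison. Other settings ended these calls too. For supplemented minus regular diet Il22ra2 did not pass after quantile normalization, cyclic loess or median centring (adjusted p = 0.126, 0.156 and 0.0738). Nor did Il12b after cyclic loess (adjusted p = 0.0687). The cause of these changes was not tested.

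Among 12 genes that restrain the programme, Tsc22d3, the glucocorticoid-induced leucine zipper, was the gene that passed for deprived minus regular diet. It was at 9.02 ± 0.17 on deprived arrays, against 8.39 ± 0.172 on regular arrays (SD, n = 5 and 6), and all 5 deprived arrays (8.80 to 9.20) lay above the 6 regular ones (8.24 to 8.68). The difference was 0.63 (SE 0.11, adjusted p = 0.0062 in limma), and it passed in all 33 other settings tried, with adjusted p up to 0.0383. Stat5b, which opposes STAT3 at Il17a in mouse, changed by -0.45 for supplemented minus regular diet (SE 0.08, adjusted p = 0.000196). Egr2, a factor that limits T cell activation, changed by -0.27 (SE 0.09, adjusted p = 0.0249), a call that ended without supplemented replicate 2 or 5 or regular replicate 1 or 3 (adjusted p = 0.0635, 0.0676, 0.0678 and 0.0613). Socs3, the brake on STAT3, was at -0.26 for deprived minus regular diet (SE 0.10, adjusted p = 0.231). Foxp3, the regulatory T cell factor, was at -0.08, Tbx21, the Th1 factor, at 0.13 and the vitamin D receptor gene Vdr at 0.14 for supplemented minus regular diet, and none of these passed (adjusted p = 0.528, 0.203 and 0.132). Of 5 aryl hydrocarbon receptor targets, 0 passed for supplemented minus regular diet, where Cyp1a1 (0.19), Ahrr (0.16) and Cyp1a2 (0.15) had an unadjusted p below 0.05. Over all genes 26.7% passed in that comparison and 40.5% had an unadjusted p below 0.05 in limma. Cyp1a1 passed there without deprived replicate 2 (adjusted p = 0.0492) and Cyp1a2 without supplemented replicate 3 (0.0309). Cyp1a2 passed for supplemented minus deprived diet (0.20, SE 0.07, adjusted p = 0.0366), not without deprived replicate 2, 3 or 4 or supplemented replicate 2, 5 or 6 (adjusted p up to 0.109). Cyp1b1 was at 0.25 for deprived minus regular diet (SE 0.11, adjusted p = 0.265).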

How the data were processed

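Expression in sorted CD4+ T cells was measured on 17 Affymetrix rat arrays from 250 ng of total RNA each. The authors' deposited values are log2 expression values from RMA and Partek 6.0, per the submitters' processing notes. That they are log2 follows from their range, and neither the probe file nor scan batches were used here. The number of arrays limits the precision. The platform annotation gave 15310 of 29214 rows exactly 1 symbol and 323 rows several; another 13581 were unlisted. Symbols were updated through Entrez identifiers (15279 matched RefSeq's GRCr8 table), and each of 14506 genes kept its row with the highest mean, with no level filter. No 2 arrays held identical values.

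All 3 diets entered 1 limma 3.58.1 fit (R 4.3.3, moderated by eBayes, 14 residual and 8.751 prior degrees of freedom), which was tested on simulated data. Its p-values were adjusted by Benjamini-Hochberg over all genes at a threshold of 0.05. Correlations of deviations from diet means used 100000 resamples. The members and lists were chosen with earlier results of these data known. Beside the members, the text names up to 4 genes of each list with the smallest p in any comparison and the 3 genes nearest in profile to Il17a and Il17f. Foxp3, Tbx21, Vdr, the markers named and the nearest genes of Il1r1, Il21 and Il22 were picked after their values were seen. Alternatives covered normalization, filters, rows per gene, moderation, array weights, covariates, the diets in the fit, the threshold and each array left out. Same-numbered replicates of different diets showed no visible shared deviation (r over 0.1 in 3 of 16 pairs, against 20 of 80 pairs of unlike number). The numbers were therefore not used as pairs. Whether same-numbered samples were handled together cannot be read from this.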

Additional observations from a re-analysis of the deposited data

How the results depend on the processing

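Of 765 values of the 8 Th17 genes under 33 other settings, 754 kept their side of the threshold and 11 came to pass it; none that passed was lost, since none passed at first. The count of the 8 that passed for supplemented minus deprived diet was 1 under median centring, with only the 2 diets compared and at an adjusted p of 0.1, and 2 with the B cell marker mean as a covariate. With that covariate it was 1 for supplemented minus regular diet and 2 in the F test. Leaving out 1 array at a time gave 0 to 1 for supplemented minus regular, 0 for deprived minus regular, 0 to 2 for supplemented minus deprived diet and 0 to 1 in the F test. The pairs of the 8 genes that passed numbered 13 with the B cell or the myeloid mean as a covariate, and 5 (without supplemented replicate 3) to 14 (without regular replicate 6) with 1 array left out. The alternatives for the pairs were chosen after seeing the data. The cause of these changes was not tested.

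Replicate numbers were not used as pairs in the main fit (1 of 17 arrays correlated best with an array of its own number). With the replicate number as a block, 86 genes were called for deprived minus regular diet, and 1 of the 8 Th17 genes, Il1r1, passed for supplemented minus deprived diet.

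Over all genes, the count for deprived minus regular diet (137) was 37 after quantile normalization, 57 after cyclic loess, 229 without the lowest 50% of genes, 236 over all rows, 589 with array weights, 58 with array spread as a covariate, 246 without supplemented replicates 2 and 5, 375 with only the 2 diets, 303 at an adjusted p of 0.1 and 26 to 179 with 1 array left out. For supplemented minus regular diet (3880) it was 2528 after loess, 6901 over all rows, 0 with array spread, 2121 without supplemented replicates 2 and 5, 932 with the myeloid mean and 2980 to 4408 with 1 array left out. For supplemented minus deprived diet (5737) it was 3485 after quantile normalization, 3471 after loess, 3818 without the lowest 50%, 10785 over all rows, 0 with array spread, 3822 without supplemented replicates 2 and 5, 2216 with the myeloid mean and 4834 to 6173 with 1 array left out. The F test (5359) gave 3526, 3516, 10011, 41, 3315 and 1723 after quantile normalization, after loess, over all rows, with array spread, without supplemented replicates 2 and 5 and with the myeloid mean, and 4367 to 5698 with 1 array left out. Centring gave 332 higher and 3262 lower for supplemented minus regular, against 1460 and 2420 without it, and 656 and 4167 for supplemented minus deprived diet, against 2663 and 3074.

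Of 22 calls among the named pathway genes, 12 held after quantile normalization, 8 after loess, 19 after centring, 7 with the myeloid mean and 1 with array spread, the deprived minus regular difference of Tsc22d3. Signs turned for Satb1 in supplemented minus deprived diet after loess (0.02179), and with array spread in supplemented minus regular diet for Stat3 (0.0005827), Satb1 (0.10) and Egr2 (0.11). In supplemented minus deprived diet they turned with array spread for Stat3 (0.0366), Satb1 (0.18), Egr2 (0.26), Il12b (-0.03518), Pdpn (-0.004783), Ccr6 (0.01222) and Stat5b (0.14). Array spread goes with the supplemented diet, so that fit leaves wide errors.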
